A study of Arabidopsis thaliana with 24 samples.

Results

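Acetylation of lysine 9 on histone H3 (H3K9ac) was compared between wild-type Arabidopsis seedlings grown in continuous white light (wt WLc) and in darkness (wt D). The comparison takes in 6 of the 24 libraries of the study, 3 per condition, and 2 of the 6 columns of its deposited peak table. Nothing was selected by signal, so that all 17319 distinct peaks of the table, assigned to 17672 genes in 19435 entries, were used. Both groups were Columbia-0 seedlings aged 2 days, grown at 21 °C after stratification for 4 days, and 2.5 g of seedlings went into each chromatin immunoprecipitation. The wt WLc seedlings stood under white light of 100 µE m-2 s-1 from the end of stratification. The wt D seedlings received white light to start germination and a far-red pulse, and then true darkness. Wild-type seedlings exposed to red light for 1 h following 47 h in the dark (wt R1h) and the same light conditions in pifq, a mutant of PIF1, PIF3, PIF4 and PIF5, are used only for reference. The study added WLc to set the first hour of light beside sustained light.

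In darkness, a seedling elongates its hypocotyl, keeps its cotyledons closed behind an apical hook and lives on seed reserves, a programme held in place by the PIF transcription factors. Light, seen by phytochromes and cryptochromes, removes most PIF protein, after which cotyledons open, chloroplasts form and elongation slows. H3K9ac sits over the 5′ part of transcribed genes and is written by acetyltransferases and erased by deacetylases.

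The authors pooled the replicates into a single signal value per peak and group, expressed per bp of peak. No SD, n or p can therefore be given for any gene, no test was run, and a difference between the columns has no replicate check here. Where a gene is given a pair of values, the signal in wt D comes before that in wt WLc. Changes are given as log2 of wt WLc over wt D after 0.0717 was added to both signals, which is 0.1 of the median of all values and understates the change of weak peaks. Genes at least 1.5-fold apart on this scale are called higher or lower, and for genes with several peaks the one with the highest mean over all 6 groups was taken. Whole seedlings were used, so that more cells of a type and more H3K9ac per cell cannot be told apart. Seedlings of the same age also differ in development between light and darkness, and this cannot be told apart from the light itself.

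Across the genome, most genes had near-equal H3K9ac in white light and darkness, with clear exceptions on both sides. Of the 17672 genes, 1276 (7.22%) were higher in wt WLc and 1088 (6.16%) were lower, while 67.6% lay within 1.2-fold and the median log2 change was −0.01. A 2-fold limit left 559 higher and 413 lower genes, and a 4-fold limit left 127 and 51. Counted over distinct peaks, 1522 (8.79%) were higher and 1286 (7.43%) lower. The slight excess of higher genes in these pooled values turned with the processing. Without peaks of mean signal below 0.554, 356 genes were higher and 419 lower, and with quantile normalization the counts were 1076 and 1220.

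**Figure D1:**
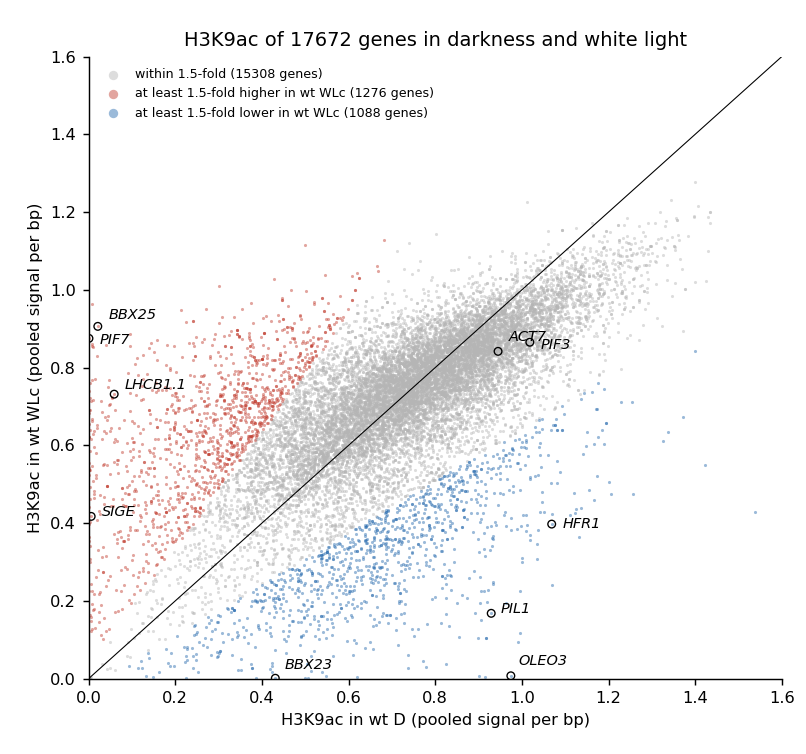
Pooled H3K9ac signal per bp in wt D (horizontal) and wt WLc (vertical) for 17672 genes, 1 point per gene, with the line of equal signal and 10 genes marked by open circles. The 1276 higher genes (red) lie toward the left edge, with PIF7 at 0.0007 in wt D, the smallest value of its column by signal times length, and 0.875 in wt WLc. The 1088 lower genes (blue) lie below the cloud, with PIL1 at 0.929 and 0.168.

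The signal was more even across peaks in white light. The median over peaks was 0.711 in wt D and 0.719 in wt WLc, whereas the SD over peaks was 0.245 in wt D and 0.204 in wt WLc. Peaks whose signal times length equalled the smallest such product of the column, called the floor here, numbered 71 in wt D and 24 in wt WLc. The highest signal was 1.54 in wt D and 1.28 in wt WLc. When peaks were split by mean signal into 10 bins of equal number, the median log2 change was −0.12 in the highest bin, 0.10 in bin 2 from the bottom and −0.02 in the lowest bin. Signal times length, summed over peaks, was 1.96% lower in wt WLc than in wt D, and how the columns were scaled to each other is not given. An overall change in H3K9ac is therefore not measured by these values.

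Promoters of genes with large changes are shown first, because the G-box, CACGTG, is the element to which PIF and HY5 proteins bind. Of the listed genes described in the following paragraphs whose 300 bases upstream of the annotated start hold this hexamer, the 4 with the highest and the 4 with the lowest log2 change are printed. Each stretch reaches up to 60 bases to either side of the copy nearest the start, stays upstream of the start and is written 5′ to 3′ on the strand of the gene, with the hexamer in capitals. Positions and sequences come from the RefSeq TAIR10.1 genome, and no other annotated gene overlaps a stretch.
MYB12 (chr2:19476148-19476273, plus strand): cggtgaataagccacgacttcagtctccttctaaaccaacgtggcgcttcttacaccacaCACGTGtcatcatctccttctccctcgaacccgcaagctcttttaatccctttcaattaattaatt
CHIL (chr5:1563159-1563284, plus strand): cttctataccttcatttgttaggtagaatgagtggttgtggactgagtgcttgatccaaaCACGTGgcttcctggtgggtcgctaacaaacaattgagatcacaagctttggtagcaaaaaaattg
F3H (chr3:19024892-19025008, plus strand): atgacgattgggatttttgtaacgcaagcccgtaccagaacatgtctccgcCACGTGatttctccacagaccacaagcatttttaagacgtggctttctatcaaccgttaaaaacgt
PRR9 (chr2:19232375-19232500, plus strand): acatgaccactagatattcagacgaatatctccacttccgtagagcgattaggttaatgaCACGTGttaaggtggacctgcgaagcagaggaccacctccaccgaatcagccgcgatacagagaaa
OLEO3 (chr5:20819968-20820067, plus strand): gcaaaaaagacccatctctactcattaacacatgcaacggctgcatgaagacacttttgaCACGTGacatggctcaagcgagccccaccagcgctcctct
HSD5 (chr4:6268094-6268219, plus strand): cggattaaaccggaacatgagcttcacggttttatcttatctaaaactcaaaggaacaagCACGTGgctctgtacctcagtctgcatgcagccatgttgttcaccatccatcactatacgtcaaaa
AT5G05965 (chr5:1792636-1792761, minus strand): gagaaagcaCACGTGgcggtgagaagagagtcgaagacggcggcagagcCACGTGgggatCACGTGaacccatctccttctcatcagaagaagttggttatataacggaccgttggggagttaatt
IAA19 (chr3:5263871-5263996, plus strand): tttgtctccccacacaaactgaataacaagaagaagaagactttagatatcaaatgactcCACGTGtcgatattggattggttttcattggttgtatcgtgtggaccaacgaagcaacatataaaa

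The first of these genes encode flavonol activators and enzymes and a clock repressor, with log2 changes of 3.27 at MYB12, 2.33 at CHIL, 2.31 at F3H and 1.79 at PRR9. The others encode an oil body protein, a hydroxysteroid dehydrogenase, a protein without a name and an auxin response repressor, with −3.73 at OLEO3, −1.83 at HSD5, −1.44 at AT5G05965 and −1.02 at IAA19. That the G-box stood before genes of both directions was fixed by the choice of these genes and is not a result. AT5G05965 held 3 copies of the hexamer.

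Motif shares were counted on both strands of the 300 bases upstream of 17580 genes, as a description without a test. CACGTG was found upstream of 8.83% of 1269 higher genes, 8.23% of 1082 lower genes and 7.96% of all genes. CATGTG, an E-box that PIF proteins also bind, was found at 12.8% of higher, 18.0% of lower and 12.8% of all genes. Lower genes thus held this E-box more often than the rest, and among those at least 2-fold lower the share was 20.2%. TGGGCC, the site II element of many growth and ribosomal genes, showed the opposite, at 15.4% of higher, 7.02% of lower and 17.8% of all genes. AACCCTA, the telo box, was at 6.15%, 3.51% and 6.55%. GATAAG, the I-box of photosynthesis promoters, was at 17.3%, 15.4% and 14.7%, and at 19.6% of genes at least 2-fold higher. AATATCT, the core of the evening element, was at 12.3%, 12.9% and 11.6%, and ATTGG, the reverse of the CCAAT box, at 55.4%, 49.4% and 53.8%. ACGTGGC, which shares up to 5 letters with the G-box and overlaps it where they join as CACGTGGC, was at 5.60% of higher, 3.05% of lower and 4.14% of all genes. These shares are not matched on signal. The median of mean signal was 0.479 at higher and 0.446 at lower peaks, against 0.742 at peaks within the limit. The part of signal strength in the motif shares was not tested. A match of letters does not show that a protein was bound.

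Genes with high log2 changes are described first for those whose signal in wt WLc reached the median of all values, 0.717, a filter that leaves out weaker peaks with changes of the same size. Over the 20 of these with the highest change, the signal in wt D ranged from 0.0007 to 0.0963 and in wt WLc from 0.722 to 0.964, and the groups did not overlap, which the choice of these genes by size and level fixes. PIF7, a PIF protein of the shade response, went from 0.0007 in darkness to 0.875 in light, a log2 change of 3.71. Its peak (chr5:24638956-24640507, starts as the table gives them) began 258 bp downstream of the start and was 79.2% exonic. BBX25, a B-box protein that acts with COP1, had 0.021 and 0.906, a log2 change of 3.40. XTH6, a xyloglucan transferase of the cell wall, had 0.007 and 0.856, and SDR1, a short-chain reductase, had 0.001 and 0.739. TBL15, of a family that acetylates cell wall polymers, had 0.007 and 0.964. Other members of the 20 were MSL5, a mechanosensitive channel, at 0.096 and 0.856, and LHCB1.1, an antenna protein, at 0.059 and 0.732. The uncharacterized gene AT3G52740 had 0.008 and 0.862. Of the 20, 7 lay at the floor in wt D, among them PIF7, XTH6, SDR1 and TBL15, so that their log2 change is set by the pseudocount. The limit reaches further, since the median wt D signal of the 20 genes, 0.0172, was below the pseudocount. BBX25, AT3G52740 and LHCB1.1 were also below it, so that the size of their log2 change depends strongly on the pseudocount. In length, 7 peaks were 250 bp or shorter, among them those of XTH6 and TBL15.

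The 20 genes with the lowest changes, among those whose wt D signal reached the same median, included genes of seed reserves, hormone synthesis and water transport. Their signal ranged from 0.737 to 0.996 in wt D and from 0.0051 to 0.168 in wt WLc. OLEO3, an oil body protein of seeds, went from 0.975 in darkness to 0.007 in light, a log2 change of −3.73, in a peak from 66 to 546 bp downstream of its start. ACS8 and ACS5 encode the committed enzyme of ethylene synthesis. ACS8 had 0.737 and 0.060, and ACS5 had 0.831 and 0.135. PIP2;4, a plasma membrane aquaporin, had 0.996 and 0.117, and PIL1, a bHLH protein induced by PIFs and by shade, had 0.929 and 0.168. The pyruvate decarboxylase PDC3, of fermentation, had 0.898 and 0.105. Further members were FLP1 (0.915 and 0.005, the floor of wt WLc), the zinc finger gene LATE (0.737 and 0.028), MYB10 (0.779 and 0.031), the selenium-binding protein SBP3 (0.992 and 0.093) and SKS1, a relative of the growth protein SKU5 (0.824 and 0.037). The median wt WLc signal of the 20 genes, 0.105, was above the pseudocount. OLEO3, FLP1, LATE, MYB10, SKS1 and ACS8 were below it there, so that the size of their log2 change depends strongly on the pseudocount. The 1-h values lay across the whole interval, from 0.041 at ASY3 to 0.870 at PIP2;4.

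**Figure D2:**
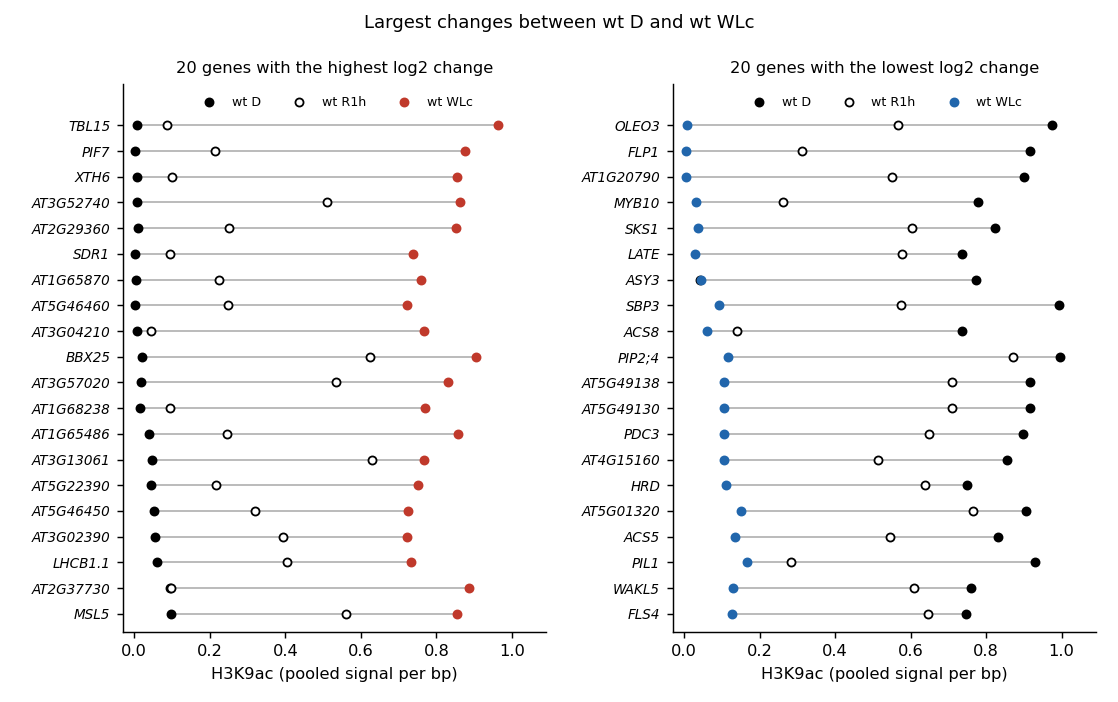
Pooled H3K9ac signal per bp in wt D (black), wt R1h (open) and wt WLc (coloured) of the 20 genes with the highest (left) and the 20 with the lowest (right) log2 change among those with at least 0.717 in the higher group. The R1h points of the left genes lie between 0.0434 and 0.630 and those of the right genes between 0.041 and 0.870.

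Genes of the photosynthetic apparatus formed the broadest group with more H3K9ac in light. Of 21 light-harvesting antenna genes, which bind chlorophyll around the photosystems, 13 were higher and 0 lower, with a median log2 change of 1.32. Their summed signal was 8.80 in wt D, 12.2 in wt R1h and 16.7 in wt WLc. LHCB1.2 had 0.122 in darkness and 0.752 in light, LHCB1.4 had 0.151 and 0.841, and LHCB2.1 had 0.120 and 0.537. LHCB3 had 0.245 and 0.829, LHCA4 had 0.159 and 0.647, and LHCA3 had 0.328 and 0.895. The major trimer genes LHCB1 to LHCB3 and most LHCA genes thus started low in darkness. Several members stood high in both, with 1.09 and 1.15 at LHCB6, 0.975 and 1.04 at LHCB4.2, and 0.75 and 0.710 at LHCB7. LHCB4.3, an isoform of a linker antenna, had 0.766 and 0.593, a log2 change of −0.33. LHCB1.1 to LHCB1.3 are near-identical copies between which short reads can be split, and how the authors treated such reads is not given in the sources used here.

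All 31 photosystem and electron transport genes were above 0 in log2 change, and 21 were higher by the 1.5-fold limit (median 0.77). PSBP-1, of the oxygen-evolving complex, had 0.316 in darkness and 0.825 in light, and PSAN, of photosystem I, had 0.343 and 0.887. PETC, the Rieske protein of the cytochrome b6f complex, had 0.274 and 0.684. PGR5, needed for cyclic electron flow, had 0.187 and 0.491, with a higher value of 0.546 in wt R1h. At the other end, PETE1, a plastocyanin, had 0.782 and 0.912.

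Carbon fixation and photorespiration genes were also higher in light. Of 17 Calvin-Benson genes, 13 were higher and 0 lower (median 0.83). FBA1, a plastid aldolase, had 0.032 in wt D, 0.318 in wt R1h and 0.549 in wt WLc, or 2.58 on the log2 scale. Its paralog FBA2 had 0.354 and 0.951. GAPA had 0.187 and 0.794, and RCA, Rubisco activase, had 0.355 and 0.736. RBCS1A, a Rubisco small subunit, had 0.521 and 0.964. RBCS1B and RBCS2B share a single peak of 4691 bp with 0.266 and 0.543, and copies of this tandem array cannot be told apart there. TIM, a triose phosphate isomerase, had 0.791 and 0.808. Of 12 photorespiration genes, 8 were higher (median 0.78), including GLU1, glutamate synthase, at 0.192 and 0.729, PGLP1, phosphoglycolate phosphatase, at 0.133 and 0.498, and HPR, hydroxypyruvate reductase, at 0.311 and 0.752.

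In pigment pathways single steps differed. Of 27 tetrapyrrole and chlorophyll genes, 6 were higher and 0 lower (median 0.21). These were GUN5, a subunit of magnesium chelatase, CHLG, chlorophyll synthase, CRD1, the cyclase, PORC, a protochlorophyllide oxidoreductase, GUN4, an activator of the chelatase, and HEMA1, the first enzyme of the pathway. GUN5 had 0.324 in darkness and 0.883 in light, CHLG had 0.327 and 0.763, and CRD1 had 0.503 and 0.998. PORB had 0.587 and 0.797, a log2 change of 0.40, and HEMA2, the other glutamyl-tRNA reductase, had 0.853 and 0.850. Of 22 carotenoid and isoprenoid genes, 5 were higher and 0 lower (median 0.15). VTE1, tocopherol cyclase, had 0.245 and 0.704, and LUT5, a carotene hydroxylase, had 0.370 and 0.889. NPQ1, violaxanthin de-epoxidase, had 0.401 and 0.656, BETA-OHASE2 (BOH2) had 0.389 and 0.640, and LUT2 had 0.584 and 0.922. PSY, phytoene synthase, stood just inside the limit at 0.457 and 0.714.

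Of 21 flavonoid synthesis genes, 14 had a peak, and of these 8 were higher and 0 lower (median 0.71). F3H, flavanone 3-hydroxylase, had 0.043 in darkness and 0.496 in light, but 1.1 in wt R1h, in a peak also entered for a neighbouring gene. CHIL, a chalcone isomerase-like protein, had 0.071 and 0.644, FLS1, flavonol synthase, had 0.149 and 0.580, and 4CL3 had 0.094 and 0.475. MYB12, the activator of these enzymes, lay at the floor in darkness (0.010) and at 0.717 in wt WLc, in a peak of 105 bp that lies 2569 to 2674 bp downstream of the start. PAL2, at the entry of phenylpropanoid synthesis, had 1.05 and 1.06.

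The regulators and the other machinery of plastids differed less. Of 20 genes for plastid gene expression and development, 3 were higher and 0 lower (median 0.26). SIGE, a sigma factor of the plastid RNA polymerase, had 0.006 in darkness and 0.417 in light, below its 0.654 in wt R1h. CGA1, a GATA factor, had 0.067 and 0.562, and GLK1, a factor for chloroplast genes, had 0.494 and 0.863, while GLK2 had 0.584 and 0.784. GUN1, of plastid retrograde signalling, had 0.902 and 0.797. Of 16 plastid ribosomal protein genes none passed the limit (median 0.12), the members ranging from −0.22 at RPL15 to 0.41 at RPS9. Of 16 protein import genes, 2 were higher, TIC55 (0.248 and 0.752) and TIC62 (0.396 and 0.769), and the median was 0.02.

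Of 13 photoprotection genes, 4 were higher and 0 lower in wt WLc (median 0.40), and both ELIP genes were highest after 1 h. ELIP1, an early light-induced protein, had 0.157 in wt D, 0.749 in wt R1h and 0.159 in wt WLc, and ELIP2 had 0.138, 0.553 and 0.355. PSBS, of non-photochemical quenching, had 0.301 in darkness and 0.573 in light, and the thylakoid kinase STN7 had 0.507 and 0.893. For the antioxidant list, 2 of 17 were higher, the iron superoxide dismutase FSD1 (0.306 and 0.698) and PRXQ (0.276 and 0.608).

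Metabolic genes linked to photosynthate divided by pathway. Of 21 starch and sucrose genes 4 were higher, among them GBSS1, which makes amylose, at 0.077 and 0.584, and TPT, the triose phosphate translocator, at 0.372 and 0.856. Of 15 nitrogen and sulfur genes 3 were higher, ASN2 (0.392 and 0.821), GLN1.2 (0.359 and 0.747) and APR2 (0.477 and 0.782). In reserve lipid mobilisation, 17 of 19 genes had a log2 change under 0 with a median of −0.20, but none passed the limit downward. Their median signal in wt D was high, at 0.899. Strong peaks in general also had medians under 0, at −0.05 in bin 9 and −0.12 in the highest bin of mean signal. The median was −0.08 for reference genes and −0.01 for all genes, so a small shift is not particular to this list. ICL, isocitrate lyase of the glyoxylate cycle, had 0.670 and 0.438, MLS, malate synthase, had 0.824 and 0.536, and PCK1 had 0.966 and 0.764. PMDH2, a peroxisomal malate dehydrogenase also used in photorespiration, was higher, at 0.316 and 0.855. Of 13 iron genes 2 were higher, with YSL1, an iron-chelate transporter, at 0.097 and 0.735.

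Few photoreceptor genes passed the limit, while some components that act beside them did. Of 20 photoreceptor and phototropism genes, 3 were higher and 2 lower (median 0.03). PHYB, the main red-light receptor, went from 1.11 in darkness to 0.787 in light, a log2 change of −0.45, and PHYA had 1.02 and 0.832. CRY1 had 0.569 and 0.652, and UVR8 had 1.08 and 1.09. FHY1 and FHL carry phytochrome A into the nucleus. FHL had 0.873 and 0.411, and FHY1 had 0.863 and 0.507. RPT2, of phototropism, had 0.188 and 0.798, PKS4 had 0.514 and 0.857, and CRY3 had 0.268 and 0.635.

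Among 27 light-signalling genes with a peak, 8 were higher and 2 lower (median 0.08), and all of those past the limit except SPA1 and HYH encode B-box or CONSTANS-like proteins. BBX30 had 0.068 in darkness and 0.377 in light, BBX31 had 0.090 and 0.359, BBX18 had 0.434 and 0.723, and COL2 had 0.125 and 0.832. In the other direction BBX23 had 0.431 and 0.001, the floor, and BBX20 had 0.664 and 0.387. The B-box family thus held genes at both ends of the comparison. HYH, a bZIP factor, had 0.487 and 0.837, and its homolog HY5 had 0.559 and 0.586 after a transient 0.965 in wt R1h. COP1, the ubiquitin ligase that degrades HY5 in darkness, had 0.892 and 0.839, while its partner SPA1 had 0.419 and 0.736. Of 5 PIF genes with a peak, PIF7 alone passed the limit, from the floor in wt D. PIF4 had 0.617 and 0.846, PIF5 had 0.683 and 0.827, PIF3 had 1.02 and 0.865, and PIF1 had 0.964 and 0.855.

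Clock genes that passed the limit upward were mostly morning genes. Of 26, 6 were higher and 2 lower (median 0.09). PRR9, at 0.040 in darkness, had 0.314 in light and 0.959 in wt R1h. CCA1 had 0.337 and 0.635, LHY had 0.340 and 0.636, RVE1 had 0.469 and 0.897, RVE8 had 0.433 and 0.752, and CDF1, a repressor of flowering genes, had 0.209 and 0.697. The evening genes BOA (1.37 and 0.674) and PRR3 (0.713 and 0.324) were lower. GI had 0.393 and 0.328, and TOC1 had 0.892 and 0.791. Both conditions were constant, so the values are from a single harvest without a known clock phase.

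Shade and growth transcription factor genes, a list that mixes growth promoters with factors that restrain PIFs, mostly had less H3K9ac in light. Of 21 shade and growth transcription factor genes, 8 were lower and 0 higher (median −0.40), and 20 had a log2 change under 0. PIL1 had −2.06. HB52, a homeodomain factor, had 0.800 in darkness and 0.211 in light, PRE5, a small growth-promoting HLH protein, had 0.530 and 0.128, and HEC2 had 0.835 and 0.264. HFR1, an HLH protein that restrains PIFs, had 1.07 and 0.397. HB-2 (HB2), of the shade response, stood at the limit at 0.834 and 0.531. BEE3 had 0.760 and 0.752 with 0.22 in wt R1h, and it was the member with the smallest change.

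Auxin and ethylene genes followed. Of 29 auxin response and SAUR genes, 10 were lower and 1 higher (median −0.34). IAA6 had 0.550 in darkness and 0.127 in light, IAA19 had 0.848 and 0.383, and IAA17 had 0.836 and 0.473. Aux/IAA proteins repress auxin responses and are themselves induced by auxin. The SAUR19 group, which promotes cell expansion, had 0.789 and 0.306 at SAUR19, 0.664 and 0.262 at SAUR22, and 0.581 and 0.182 at SAUR24, which are tandem copies of similar sequence. SAUR14, with 0.346 and 0.882, was the 1 higher member, and SAUR50 had 0.877 and 0.884. Of the synthesis genes, TAA1 had 0.784 and 0.458, YUC2 had 0.455 and 0.200, and SUR2 had 1.04 and 0.309. PIN3, an auxin transporter, lay within the limit at 1.13 and 0.930. Of 21 ethylene genes, 5 were lower and 0 higher (median −0.20). ETR2, a receptor, had 0.729 and 0.361, HLS1, which shapes the apical hook, had 1.03 and 0.634, and ERF1 had 0.676 and 0.409. EIN3, the master transcription factor, had 0.758 and 0.668.

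Of 20 gibberellin genes, 5 were lower and 2 higher (median −0.22), and all of these except GASA6 encode enzymes of synthesis or inactivation. GASA6, of a gibberellin-regulated peptide family, had 0.275 and 0.721. GA3OX1, which makes active gibberellin, had 0.807 in darkness and 0.45 in light, and GA20OX1 had 0.648 and 0.399. The inactivating oxidases did not share a direction. GA2OX8 had 0.469 and 0.149, GA2OX6 had 0.828 and 0.483, and GA2OX4 had 0.036 and 0.156. GA2OX1 had 0.132 and 0.006 with a peak of 0.928 in wt R1h. GAI, a DELLA repressor, had 1.32 and 1.13. Of 15 brassinosteroid genes, 2 were lower, ROT3 (0.671 and 0.414) and BAS1 (0.617 and 0.385), and of 14 cytokinin genes 2 were lower and 1 higher, with CKX5, a cytokinin oxidase, at 0.904 and 0.262.

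Wall, cuticle and channel genes gave mixed counts. Of 24 expansin and xyloglucan transferase genes, 5 were higher and 3 lower (median 0.02). XTH15 (XTR7) had 0.657 in darkness and 0.134 in light, and XTH33 had 0.706 and 0.385. XTH22, known for its touch response, had 0.201 and 0.611, XTH9 had 0.145 and 0.458, and EXPA5 had 0.272 and 0.502. Of 18 cellulose, xylan and lignin genes, 1 was higher, IRX9, at 0.252 and 0.573. Of 17 cuticle genes, CER1, of alkane synthesis, had 0.630 and 0.280 and LACS2 had 0.308 and 0.516, and no other passed the limit. Of 14 water and ion channel genes 2 were lower, TIP2;2 (0.805 and 0.488) and the proton pump AHA2 (0.993 and 0.616).

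**Figure D3:**
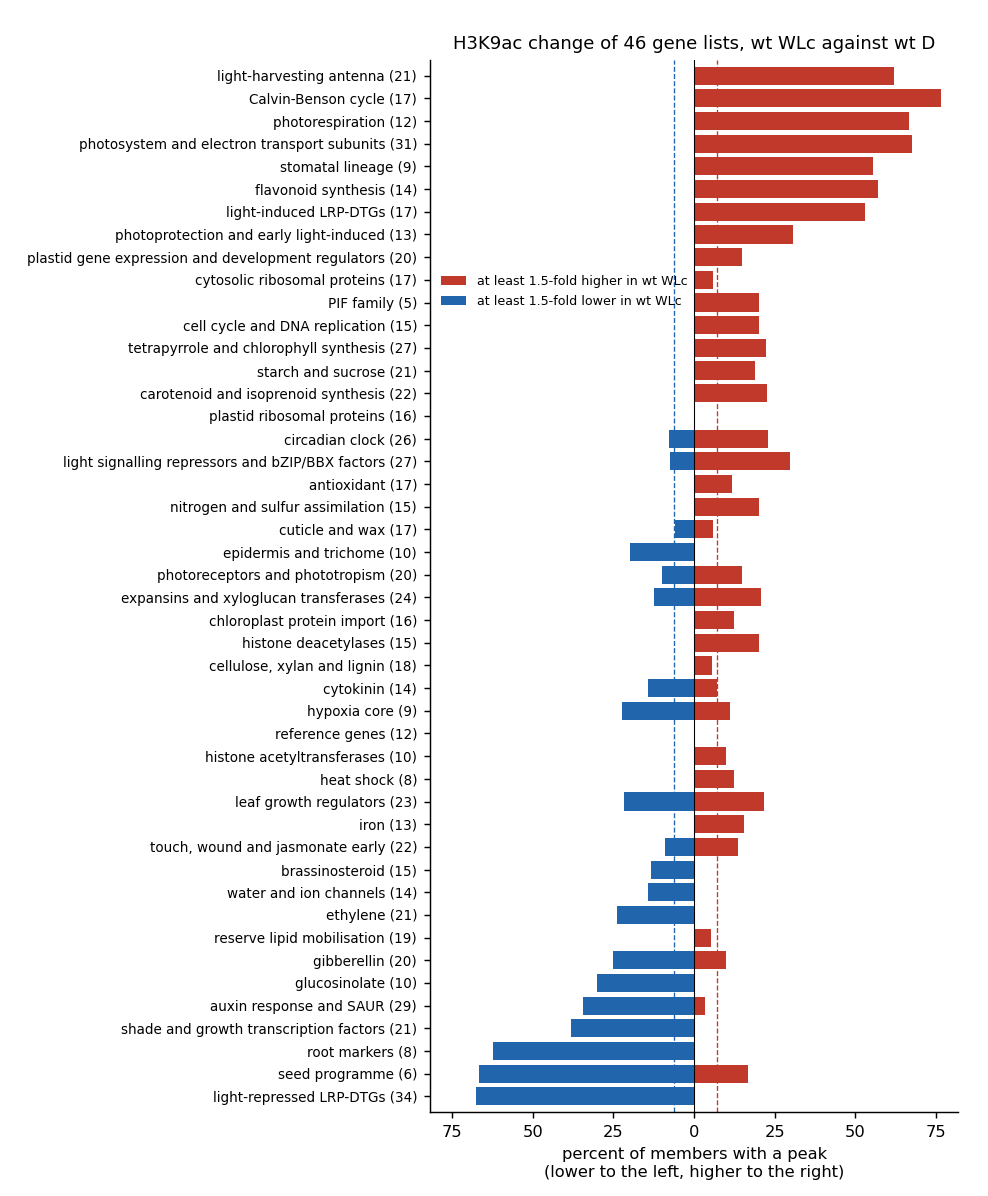
Percent of the members with a peak that were at least 1.5-fold higher (red, to the right) or lower (blue, to the left) in wt WLc than in wt D, for 46 gene lists ordered by median log2 change, with the number of members with a peak in brackets. Dashed lines mark the shares over all genes, 7.22% higher and 6.16% lower, and the longest bars to the right are those of photosynthesis lists and to the left those of light-repressed LRP-DTGs, seed programme and root markers.

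Markers of organs and stages also differed between the conditions. Of 9 stomatal lineage genes with a peak, of 17 listed, all had a log2 change above 0 and 5 were higher (median 0.73), with summed signals of 4.40 in wt D and 7.07 in wt WLc. TMM, a receptor of the lineage, had 0.499 and 1.12, SPCH, which starts the lineage, had 0.266 and 0.488, and STOMAGEN, a signal from the leaf mesophyll, had 0.309 and 0.772. Of 8 root markers with a peak, of 19 listed, 5 were lower and 0 higher (median −0.70), and the sums were 5.28 and 3.40. TIP2;3, an aquaporin, had 0.613 and 0.10, PHT1;1, a phosphate transporter, had 0.491 and 0.174, and SHR, of root patterning, had 0.75 and 0.436. SCR, its target, had 1.00 and 0.982. None of these markers was at the floor, and the part of organ proportions in the other results was not tested. Of the seed programme, only 6 of 24 genes had a peak, and 4 were lower and 1 higher. ABI5, of abscisic acid signalling, had 0.782 and 0.413, and DOG1, the dormancy gene, had 0.10 and 0.663. OLEO4 had 0.922 and 0.885, so that the oleosin genes OLEO3 and OLEO4 differed widely.

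Leaf growth regulators split within a single family. Of 23 genes, 5 were higher and 5 lower (median −0.10). GRF proteins here are growth-regulating factors, which drive leaf cell proliferation, and not the 14-3-3 proteins of the same symbol. GRF7 had 0.891 in darkness and 0.170 in light, GRF8 had 0.542 and 0.119, and GRF5 and GRF6 had log2 changes of −0.64 and −0.66. GRF4 had 0.207 and 0.689, and GRF3 had 0.949 and 0.992. Among leaf polarity and growth genes, YAB1 (0.259 and 0.548), YAB3 (0.304 and 0.563), ANT (0.247 and 0.578) and TCP10 (0.377 and 0.861) were higher, and the meristem gene KNAT1 (0.554 and 0.311) was lower. REV, of leaf polarity, had 0.773 and 0.763. Of 15 cell cycle genes with a peak, MCM4, MCM5 and CYCD3;1 were higher and none was lower, with 0.316 and 0.683 at CYCD3;1. Cytosolic ribosomal protein genes were nearly all above 0, 16 of 17, but with a median of 0.26, against −0.01 over all genes, and only RPL16A past the limit (0.423 and 0.690).

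Most genes for the enzymes that write and erase the mark lay within the limit, and those past it were higher in light. Of 10 histone acetyltransferase genes, HAF2, of the TAF1 family, had 0.203 in darkness and 0.533 in light, and no other passed the limit. HAG1 (GCN5) had 1.02 and 0.90. Of 15 deacetylase genes, HDA14 (0.443 and 0.836), HD2A (0.309 and 0.508) and HDA8 (0.501 and 0.797) were higher and none was lower. Over all genes the shares were 7.22% higher and 6.16% lower. HDA19 had 0.788 and 0.722, HDA6 had 0.996 and 0.848, and HDA15 had 0.740 and 0.713.

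Lists with no direct tie to light are given beside the background of 7.22% higher and 6.16% lower. Of 12 reference genes none passed the limit, but their median was −0.08 and TUB1, a tubulin linked to elongation, had 0.78 in darkness and 0.535 in light. ACT7 had 0.945 and 0.842, and PP2AA3 had 0.706 and 0.770. Of 8 heat shock genes with a peak 1 was higher, HSP18.2 (0.341 and 0.723). Of 22 touch, wound and jasmonate genes 3 were higher and 2 lower, with LOX3 at 0.305 and 0.775 and JAZ7 at 0.640 and 0.324. Of 9 hypoxia genes 1 was higher and 2 lower, and of 10 epidermis and trichome genes GL3 (0.489 and 0.248) and ETC1 (0.689 and 0.363) were lower. Glucosinolate genes had 3 of 10 lower and a median of −0.31, with CYP79B2 at 1.37 and 0.894 just inside the limit.

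The study's own PIF targets were described as well. LRP-DTGs are genes bound by PIFs, altered in mRNA in dark pifq and changed in mRNA after 1 h of red light, so that their direction is not independent evidence. Of 34 light-repressed LRP-DTGs with a peak, all had a log2 change under 0 and 23 were lower (median −0.98). AT4G13790 had 0.504 in darkness and 0.037 in light, ST2A, a sulfotransferase, had 1.07 and 0.242, HSD5 had 0.690 and 0.142, and AT5G02580 had 0.851 and 0.195. Of 17 light-induced LRP-DTGs, 9 were higher and 0 lower (median 0.63). AT1G60590, a pectin lyase-like protein, lay at the floor in darkness and at 0.542 in wt WLc. LNK3, a clock coactivator, had 0.559 and 0.771 with 1.02 in wt R1h, and PRR5 had 0.771 and 0.783. Of 12 LRP-DTGs that the study chose for a time course, in part by their H3K9ac, all but LNK3 passed the limit, which is again no independent evidence.

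Genes that differed between darkness and white light were then followed in the other groups. At the 1276 higher genes, the median signal was 0.291 in wt D, 0.426 in wt R1h and 0.661 in wt WLc. At the 1088 lower genes it was 0.687, 0.622 and 0.319. After 1 h of red light, 491 (38.5%) of the higher genes were at least 1.5-fold above wt D, against 3.41% of all genes, and 66 (6.07%) of the lower genes were at least 1.5-fold below it, against 0.628% of all genes. The wt R1h value had reached or passed that of wt WLc at 105 higher genes and 14 lower genes, and had not left wt D in the direction of wt WLc at 124 and 292. The R1h and WLc comparisons share the wt D column, and no statistic was made of their resemblance. The shares over all genes are also not matched on signal, which was weaker at peaks past the limit.

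In the mutant, PIF3 had 0.214 in pifq D and PIF1 0.557, against 1.02 and 0.964 in wt D. PIF4 had 0.907 in pifq D and PIF5 0.671, against 0.617 and 0.683 in wt D, so that the signal was not lower at every mutated gene. At the higher genes the median was 0.499 in pifq D and 0.647 in pifq WLc, and at the lower genes it was 0.397 and 0.360, so that the pifq D medians lay closer to wt WLc than to wt D. That is read as a description, since the sets were chosen on wt D. The comparison of pifq WLc with pifq D uses neither wild-type column. There, 304 (23.8%) of the genes higher in wild type were also at least 1.5-fold higher, against 3.08% of all genes, and 3 were lower. Of the genes lower in wild type, 133 (12.2%) were lower in pifq, against 0.985% of all genes, and 56 (5.15%) were higher. The shares over all genes are not matched on signal. The median of mean signal was 0.479 at higher and 0.446 at lower peaks, against 0.742 at peaks within the limit. In the wild-type comparison weak peaks passed the limit more often. MYB12 had 0.011 in pifq D and 1.1 in pifq WLc, F3H had 0.119 and 0.650, and LHY had 0.261 and 0.684, whereas LHCB3 had 0.787 and 0.784 and PSAE-1 had 0.866 and 0.857. These genes, picked after their values were seen, show that some loci were low in dark pifq and others already near their light level there. In white light itself, 97.6% of the higher and 89.1% of the lower genes were within 1.5-fold between pifq and wild type, against 98.8% of all genes. This comparison uses the wt WLc column, on which the sets were also chosen, and the lower genes were chosen for a low signal there. The smaller share at the lower genes is therefore not read as a difference between genotypes.

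**Figure D4:**
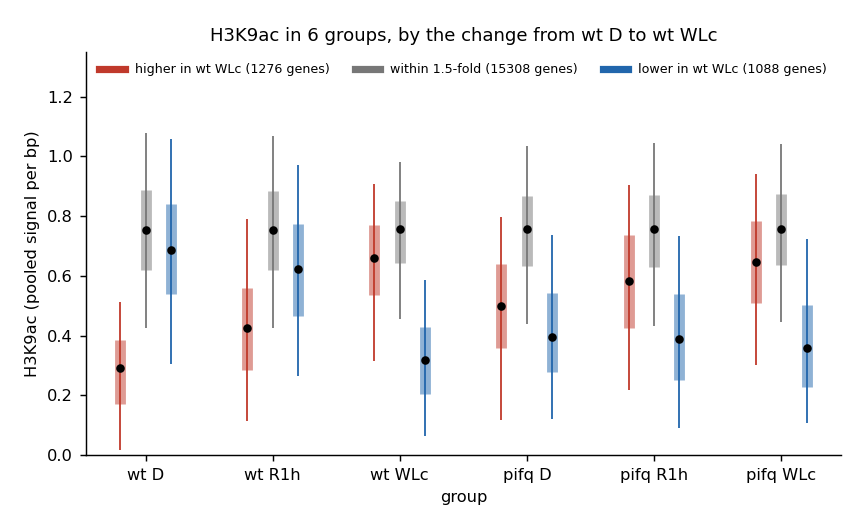
Pooled H3K9ac signal per bp in the 6 groups, for genes higher in wt WLc than wt D (red), lower (blue) and within 1.5-fold (grey). Points are medians over genes, thick bars run between the quartiles and thin lines between the 5th and 95th percentiles. The sets were chosen on wt D and wt WLc, and the medians of the red set run from 0.291 in wt D to 0.661 in wt WLc and 0.647 in pifq WLc.

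Peaks past the limit were weaker, shorter and farther into the gene than others. In the lowest of the 10 bins of mean signal, 29.3% of peaks were higher and 32.0% lower, against 0.173% and 0.462% in the highest bin. Of 794 peaks of up to 250 bp, 25.1% were higher and 20.5% lower. The median length was 609.5 bp for higher peaks, 596.0 bp for lower peaks and 862.0 bp for those within the limit. The median centre lay 554.5 bp, 610.5 bp and 450.5 bp downstream of the start of the assigned gene. Where the centre lay over 1000 bp downstream, 16.8% were higher and 12.2% lower. Peak bases were on average 76.8% exonic in higher, 81.0% in lower and 71.8% in the other peaks. A low signal is based on less sequence, and since depth per library is unknown, the part of counting noise in these shares was not tested.

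**Figure D5:**
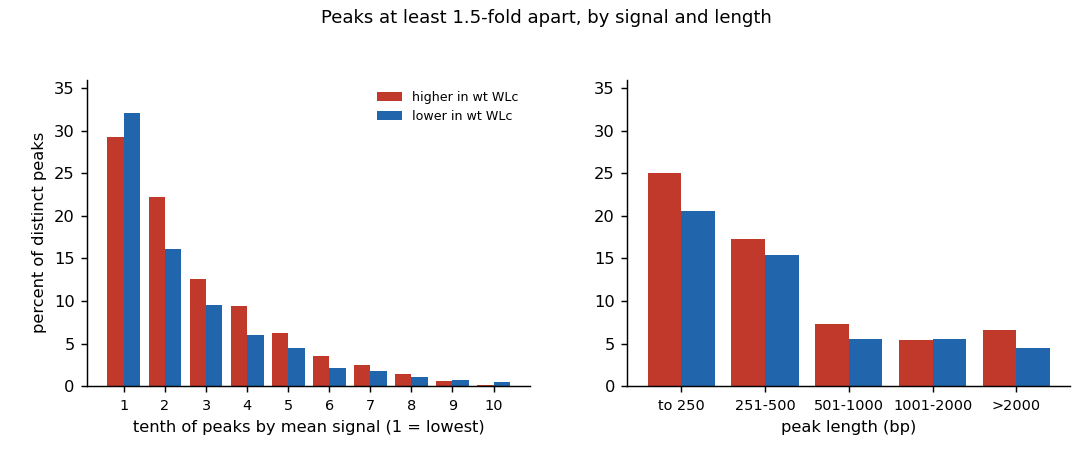
Percent of distinct peaks at least 1.5-fold higher (red) or lower (blue) in wt WLc, by bin of mean signal over all groups (left, bin 1 lowest) and by peak length (right). The shares go from 29.3% and 32.0% in the lowest bin to 0.173% and 0.462% in the highest.

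Neighbouring peaks tended to share their direction. Of higher peaks, 35.8% of those followed by another peak within 1000 bp had a higher neighbour, and 13.7% of those followed at a greater distance, against 8.79% of all peaks. For lower peaks the shares were 41.5% and 15.2%, against 7.43%. Runs of 3 or more consecutive peaks with the same call numbered 44 for higher and 42 for lower peaks. Peaks of the same gene were counted as neighbours, so that these shares and runs mix pieces of single genes with separate loci. CVP2, SPL9 and UGT84A3, for example, each held several peaks of a run of 4. The runs of at least 5 peaks are named here, and they were picked after their values were seen.

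The run with the most peaks higher in light spanned 16501 bp of chromosome 5 (chr5:18834623-18851124) and held 6 peaks over disease resistance genes of the TIR-NBS-LRR class and their neighbours. AT5G46450 had 0.053 in darkness and 0.724 in light, and the peaks of RPS6 had 0.303 and 0.829, and 0.023 and 0.782. AT5G46460, a pentatricopeptide repeat gene between them, had 0.003 and 0.723. A run of 5 on chromosome 2 (chr2:12584345-12604600), longer at 20255 bp, covered a tandem array of short-chain dehydrogenase-like genes, with 0.092 and 0.786 at AT2G29290, 0.002 and 0.537 at AT2G29310, and 0.010 and 0.853 at AT2G29360. Another 5 on chromosome 4 joined ATH1, a homeodomain gene, at 0.150 and 0.574, AT4G32990, CBL10, a calcium sensor, at 0.365 and 0.849, and the photorespiration gene GLDP1 at 0.408 and 0.708.

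The run with the most peaks lower in light held 7 peaks over 59393 bp of chromosome 5 (chr5:15115934-15175327), among glycosyltransferase and zinc-binding dehydrogenase genes. AT5G37950 had 0.423 in darkness and 0.032 in light, and AT5G38000 had 0.384 and 0.081. A run of 5 on chromosome 3 lay over DUF247 genes, with 0.709 and 0.155 at AT3G50130 and 1.06 and 0.576 at AT3G50140. Members of such arrays can share sequence, so that reads may be split between copies. On chromosome 2, the PIL1 peak and the peak entered for ASY3, a meiotic protein gene, lay 1793 bp apart. Both genes are on the minus strand, and the ASY3 peak lay 3921 to 4628 bp downstream of the ASY3 start and upstream of PIL1. ASY3 had 0.773 in wt D, 0.041 in wt R1h and 0.046 in wt WLc, and PIL1 had 0.929, 0.282 and 0.168, so that both were low after 1 h and in sustained light.

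Peaks of a single gene could differ in size or direction of change. Of 1616 genes with several peaks, 425 had at least 1 higher peak and 286 at least 1 lower peak, and in 75 and 62 genes all peaks passed the limit. Several peaks give a gene several chances of a call, and taken by their strongest peak 8.04% of these genes were higher and 6.87% lower. In 11 genes 1 peak was higher and 1 lower, among them AT1G58807, with 0.204 and 0.633 in the peak at its start and 0.625 and 0.144 farther on. For the other genes named for the spread between their peaks, a peak past the limit is set beside a peak that was not. SNC1, a disease resistance gene, had 0.018 and 0.646 in the peak at its start and 0.791 and 0.544 in a peak from 3306 bp on. RWA3, of wall acetylation, had 0.832 and 0.820 at its start and 0.005 and 0.724 in a peak 3754 bp downstream. At a gap of 49 bp follows a peak entered for both RWA3 and LHCB1.5, which was also higher, at 0.284 and 0.859. SAUL1, a ubiquitin ligase gene of senescence, had 0.977 and 0.740 at its start and 0.860 and 0.008 farther downstream, next to AT1G20790 at 0.901 and 0.006. AT1G04350 had 0.045 and 0.753 in the nearer peak and 1.00 and 0.777 in the farther one. AT5G14050 had 0.505 and 0.708, and 0.010 and 0.779.

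Of 55 microRNA genes with a peak, 7 (12.7%) were higher and 5 (9.09%) lower, against 7.22% and 6.16% of all genes, and they are named here after their values were seen. MIR825 had 0.142 in darkness and 0.682 in light, MIR163 had 0.117 and 0.522 with 0.805 in wt R1h, and MIR398b, which targets superoxide dismutase mRNA, had 0.235 and 0.695. MIR861, MIR400, MIR167a and MIR162b were the other higher ones. MIR166e, of the leaf polarity pathway, had 0.640 and 0.289, MIR160c, which targets auxin response factors, had 0.430 and 0.197, and MIR827, MIR156f and MIR167d were the other lower ones. MIR167a had 0.486 and 0.829 and MIR167d had 0.553 and 0.339, so that loci of the same family lay on opposite sides. The peaks of MIR398b, MIR400, MIR861, MIR162b and MIR156f are also entered for other genes.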

How the data were processed

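The authors immunoprecipitated H3K9ac chromatin and sequenced single ends, with 3 libraries per group. Reads were aligned with Bowtie2, enriched regions called with BayesPeak, and differences tested by the authors with DiffBind. The methods name TAIR9 and the submitters' notes TAIR10, which have the same chromosome sequences. The deposited values are a signal per bp of peak, 1 per group, in which the authors combined the replicates in a way not given in the sources used here. Input libraries, depth per library and values per library were not analysed here.

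The design was a description without a test, with limma reserved for values per library, which were not used here. The signal of wt WLc was divided by that of wt D after a pseudocount of 0.0717 and given as log2, with a limit of 1.5-fold. Gene starts come from RefSeq TAIR10.1, where 99.5% of the table's genes were found and 99.7% of entries overlapped the gene assigned to them. Chromosome ends were checked to fit. Whether the starts of peaks count from 0 or 1 is not given.

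In the 46 gene lists there are 919 genes, 766 of them (83.4%) with a peak, and 41 entries were left out because locus and symbol are not paired in the annotation. Lists overlap. Members, lists and rules were chosen with earlier results of these data known. Genes are named if they are among the 20 highest or the 20 lowest log2 changes with a signal of at least the overall median in the higher group, among the 6 largest changes or the smallest change of a list, among the 12 genes the study followed, or among the 6 genes whose peaks differ most. Other listed genes, such as homologs, and the genes of runs and microRNAs were picked after their values were seen. Alternatives covered the pseudocount, low peaks, floor peaks, equal medians, a TMM factor, quantiles, reference genes, a 2-fold limit and the choice of peak. Added after the data were seen were leaving out peaks of 250 bp or less and peaks entered for several genes. The counting was tested on simulated data. Analyses used Python 3.11.15, pandas 2.3.3, numpy 2.4.6 and matplotlib 3.10.9.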

Additional observations from a re-analysis of the deposited data

How the results depend on the processing

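The counts of 1276 higher and 1088 lower genes depended most on how weak peaks were treated. With a pseudocount of 0.5 of the median they were 642 and 516, with a pseudocount of 1 they were 105 and 58, and without peaks of mean signal below 0.554 they were 356 and 419. A 2-fold limit gave 559 and 413. The share of higher genes among those past the limit, 54.0%, was 64.4% with a pseudocount of 1, 45.9% without those low peaks, 46.9% with quantiles (1076 and 1220) and 63.2% when scaled to reference genes (1553 and 905), a scaling that moved the median of all genes to 0.07. The other alternatives, including those added after the data were seen, left both counts within 1.5 times. No list median of at least 0.1 in size and no named gene past the limit changed sign under any alternative that kept it. For named genes this was largely fixed in advance and is no check of them. A pseudocount or a fold limit cannot turn the sign of a change, and leaving out peaks can do so only in genes with several peaks. The log2 shifts of scaling, −0.01 for the TMM factor and −0.08 for reference genes, were small beside the limit. In size, list medians shifted by 0.1 or more in 21 of 46 lists with a pseudocount of 1, in 11 with 0.5 of the median, in 11 without the low peaks and in 0 to 7 otherwise. However, without the low peaks only 54 of the named genes past the limit, 202 in all, were still measured, and 53 of them were past it on the same side. Of the 202, 56 stayed past the limit with a pseudocount of 1 and 191 with quantiles. No paired analysis was possible because the table holds 1 pooled value per group, and for the same reason no replicate could be left out. Depth per library is unknown, so no interval can be given for a weak peak.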
